A study of Mus musculus with 12 samples.

Results

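The 10 genes described here are the circadian clock genes Nr1d1, Nr1d2, Per1, Per2, Per3, Cry1, Cry2, Arntl, Clock and Dbp, taken by symbol from the 34513 genes of the count table. Bulk RNA-seq was performed on cultures of 3 mouse melanocytic lines, each untreated and with SX-682, an antagonist of the chemokine receptors CXCR1 and CXCR2, with 2 libraries in each of the 6 groups. Melan-A (MelanA in the labels) is a non-tumorigenic melanocyte line, B16F0 is a tumorigenic melanoma line, and B16F10 is a metastatic derivative of the same melanoma. The controls carry the treatment label None, and no genotype or allele was altered in any group. The labels and the methods text used here do not state the dose, the exposure time, the vehicle, the hour of harvest or any synchronization for the sequenced cultures, and the conditions described for growth assays on the same lines may not apply to them, so a shift in the phase of the clock and a change in its mean level cannot be told apart. The 10 genes were picked because of their values in these comparisons, so their levels and their SX-682 differences are given as a description, and their calls are counted only beside the share of all genes called. Tests were run on 28 of 29 other genes of the same pathway, some of which are given only in counts.

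The circadian clock is a feedback loop of transcription found in most mammalian cell types. Whether it cycled in these cultures was not tested, since the hour of harvest is not given. BMAL1, encoded by Arntl, and CLOCK bind E-boxes as a heterodimer and activate the period and cryptochrome genes, whose proteins return to the nucleus and repress this activation. In a connected loop, the REV-ERB receptors, encoded by Nr1d1 and Nr1d2, compete with the ROR receptors at response elements in genes such as Arntl, while DBP, TEF and HLF activate and NFIL3 represses genes that carry D-boxes.

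The libraries held between 48876982 and 85322092 counts on genes, and levels are given as CPM, the counts scaled to a common library total, after TMM scaling, a factor that corrects for differences in library makeup. All 10 clock genes passed the expression filter, along with 18338 genes in all. The labelled cell type was checked with 7 melanocyte lineage genes. Sox10, a transcription factor of this lineage, was between 351 and 753 CPM in all 12 libraries, while Tyr, which encodes tyrosinase, was at 0.253 to 0.892 CPM in Melan-A against 17.6 to 517 CPM in the B16 lines. The summed level of the 7 genes was 1344 to 1374 CPM in untreated and 1346 to 1355 CPM in SX-682-treated Melan-A cells. Within this sum Tyr, Dct, Mitf and Mlana were lower with SX-682, with log2 fold changes of -1.55, -0.39, -0.36 and -0.20. Tyrp1 and Sox10 were higher, at 0.42 and 0.16, and Pmel was at -0.02. The sum was 18579.5 to 18664 CPM in untreated and 15769.5 to 15958 CPM in SX-682-treated B16F0 cells. In B16F10 cells it was 24442 to 24470.5 against 14947 to 15188 CPM. The lineage genes thus stood lower with SX-682 in both B16 lines, and the part of this in the clock gene values was not tested. The 9 markers of keratinocytes, fibroblasts, leukocytes and endothelial cells summed to between 8.96 and 53.9 CPM. Most of this sum in Melan-A was Col1a1, a fibroblast marker, at 45.7 to 47.1 CPM. Col1a1 thus stood above the lineage genes Tyr and Pmel in Melan-A, where Pmel was at 7.5 to 8.7 CPM. In the B16 lines Col1a1 was at most 8.93 CPM. Whether other cell types were present in the Melan-A cultures was not tested. Cd3e, a T cell gene, had 0 or 1 counts in each library. In bulk RNA, fewer cells of a type and less RNA per cell cannot be told apart.

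The promoters of the clock genes carry the elements through which the loop is wired, and 13 promoter windows of RefSeq (GRCm38.p6, 250 bases before to 50 after a transcript start) were available for 9 of the 10 genes, all except Per2. Each window was searched on both strands for the E-box CACGTG, the E-prime box CACGTT, the half-site AGGTCA, the full ROR response element (RORE, which contains the half-site), the D-box TTANGTAA and the core TGACGT of the cyclic AMP response element. The 4 promoters and the RORE stretch below were chosen because they hold the elements of the loop. Capitals mark every match to a searched motif, on either strand, so that AACGTG is an E-prime box and TGACCT a half-site read on the opposite strand. Nr1d1 (chr11:98775378-98775627, minus strand) held an E-prime box at base -28, Per1 (chr11:69098699-69098948, plus strand) an E-box at -166 and a half-site at -137, and Per3 (chr4:151044666-151044915, minus strand) D-boxes at -205 and -158. Cry1 (chr10:85185055-85185304, minus strand) held an E-prime box at -79 and an E-box at -60, and Arntl (chr7:113207527-113207556, plus strand) a RORE at base 27 after its second annotated start.
Nr1d1 promoter, bases -250 to -1: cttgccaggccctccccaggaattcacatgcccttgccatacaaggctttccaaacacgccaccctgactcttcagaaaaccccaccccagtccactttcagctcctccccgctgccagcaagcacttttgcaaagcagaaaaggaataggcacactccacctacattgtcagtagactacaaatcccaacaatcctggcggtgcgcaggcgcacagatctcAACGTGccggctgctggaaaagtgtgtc
Per1 promoter of the first annotated start, bases -250 to -1: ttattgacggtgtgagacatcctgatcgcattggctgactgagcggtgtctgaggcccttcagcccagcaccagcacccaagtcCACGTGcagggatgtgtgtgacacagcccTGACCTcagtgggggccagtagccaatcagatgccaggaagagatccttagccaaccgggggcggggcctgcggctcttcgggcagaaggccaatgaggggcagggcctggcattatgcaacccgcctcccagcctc
Per3 promoter, bases -250 to -1: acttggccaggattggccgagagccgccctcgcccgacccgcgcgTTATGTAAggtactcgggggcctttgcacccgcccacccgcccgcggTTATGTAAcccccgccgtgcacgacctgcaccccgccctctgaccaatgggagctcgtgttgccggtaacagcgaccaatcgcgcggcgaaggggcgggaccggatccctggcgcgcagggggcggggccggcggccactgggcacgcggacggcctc
Cry1 promoter, bases -250 to -1: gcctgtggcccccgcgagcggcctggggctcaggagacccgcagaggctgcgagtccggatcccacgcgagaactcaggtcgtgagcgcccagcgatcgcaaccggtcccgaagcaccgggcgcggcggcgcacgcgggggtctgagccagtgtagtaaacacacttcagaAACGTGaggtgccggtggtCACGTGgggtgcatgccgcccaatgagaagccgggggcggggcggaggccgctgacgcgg
Arntl, second annotated start, bases 17 to 46: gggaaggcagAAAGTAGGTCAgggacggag

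Among the other windows, the second Per1 start had a cyclic AMP response element core at -132, Cry2 an E-prime box at -166, Nr1d2 a half-site at -77 and the last Clock start a half-site at -119, while the Dbp window held none of these letters. An E-box was found in 2 of the 13 windows and in 7.15% of all 32851 windows, an E-prime box in 3 and in 4.68%, a half-site in 4 and in 16.3%, a RORE in 1 and in 0.384%, a D-box in 1 and in 2.32%, and the cyclic AMP core in 1 and in 7.51%. A match describes the letters in this window only.

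**Figure D1:**
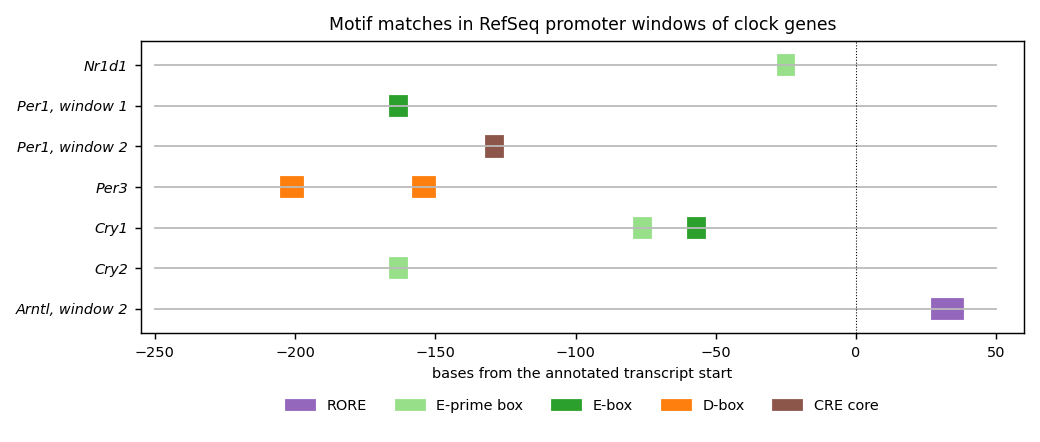
Motif matches in the promoter windows of 6 clock genes, by distance in bases from the annotated transcript start (dotted line). Boxes mark the RORE, E-box, E-prime box, D-box and cyclic AMP core matches to scale. The E-box and E-prime box matches lie before the start at -166 to -28, and the RORE of Arntl lies after it at 27.

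To compare the abundance of the clock genes with each other, RPKM values, which are CPM per kilobase of gene length, were computed from the deposited gene lengths. In untreated Melan-A cells the levels ran from 9.98 ± 0.199 RPKM (SD, n = 2) for Per1 through Nr1d2 at 7.75, Cry1 at 7.31, Nr1d1 at 5.44, Clock at 4.23, Arntl at 3.03, Dbp at 2.11, Cry2 at 1.88 and Per2 at 0.943 to 0.337 ± 0.0801 RPKM for Per3. Only Dbp and Cry2 had libraries that overlapped with their neighbour in this order. In untreated B16F0 cells Nr1d2 led at 7.92 ± 0.102 RPKM, followed by Clock at 6.50, Per1 at 5.77, Cry1 at 5.13, Nr1d1 at 4.25, Dbp at 1.95, Arntl at 1.56, Cry2 at 1.16 and Per3 at 0.416. Per2 closed the B16F0 order at 0.0394 ± 0.00549 RPKM, 10.6-fold under Per3, and no neighbours overlapped there. In untreated B16F10 cells Nr1d2 led at 12.5 ± 0.332 RPKM, ahead of Clock at 5.64, Cry1 at 5.38, Nr1d1 at 4.49, Per1 at 4.30, Dbp at 4.15, Cry2 at 1.29, Arntl at 1.16, Per2 at 0.494 and Per3 at 0.476. The pairs of Clock and Cry1, Per1 and Dbp, and Per2 and Per3 overlapped in that line.

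**Figure D2:**
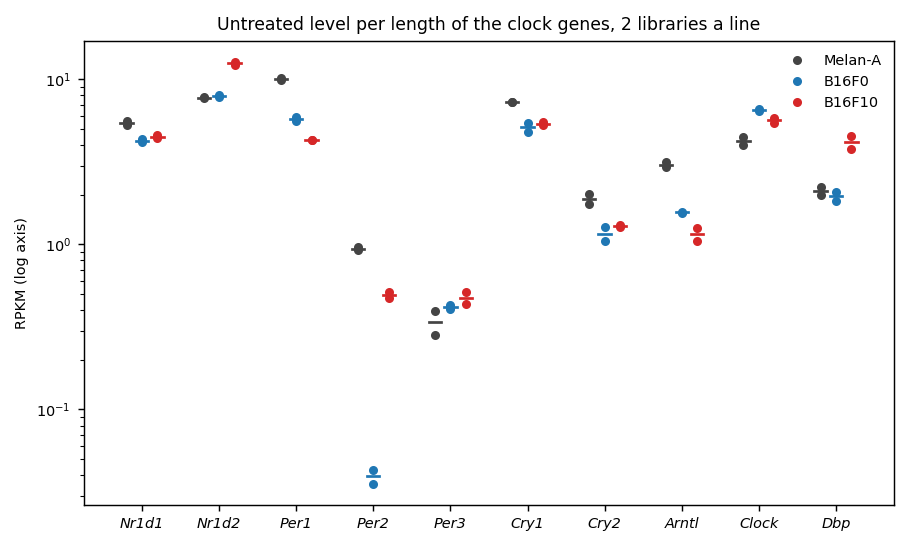
Untreated level per length (RPKM, log axis) of the 10 clock genes in Melan-A, B16F0 and B16F10, with a point for each of the 2 libraries and a line at their mean. Per2 in B16F0, at 0.0394 RPKM, stands apart from every other value.

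The untreated lines differed most in Per2 and Arntl. Per2 had 467 and 512 counts in the Melan-A controls, 19 and 14 in the B16F0 controls and 167 and 193 in the B16F10 controls, and its log2 difference was -4.56 ± 0.222 (SE of the fit) in B16F0 and -0.93 ± 0.153 in B16F10 against Melan-A. Arntl was lower than in Melan-A by a log2 difference of -0.96 ± 0.0751 in B16F0 and -1.39 ± 0.0794 in B16F10, and Per1 by -0.79 ± 0.0401 and -1.22 ± 0.0423. Cry1, Cry2 and Nr1d1 were also lower in both tumor lines, with log2 differences from -0.70 to -0.28. Clock went the opposite way, at 0.62 ± 0.0431 in B16F0 and 0.42 ± 0.0439 in B16F10. Dbp and Nr1d2 set B16F10 apart, since their log2 differences from Melan-A were 0.98 ± 0.0867 and 0.69 ± 0.0385 there but -0.10 ± 0.0944 and 0.03 ± 0.0396 in B16F0. Between the B16 lines, Per2 was 12.4-fold higher in B16F10. At an adjusted p under 0.05 by the quasi-likelihood test of edgeR, 7 of the 10 clock genes were called between B16F0 and Melan-A, 10 between B16F10 and Melan-A and 6 between the B16 lines, where 75.9%, 74.2% and 62.0% of all tested genes were called. Nothing is read from these counts, since untreated levels were part of the choice of genes.

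The REV-ERB receptors were higher with SX-682 in all 3 lines, and Nr1d1 had the largest difference of the 10 genes in each. Nr1d1 (ENSMUSG00000020889, chr11:98767932-98775333), which encodes REV-ERB alpha, was at 17.3 and 16.2 CPM in untreated and 64.8 and 67.4 CPM in SX-682-treated Melan-A libraries. In B16F0 its level was 13.3 and 12.8 CPM against 90.4 and 88.7 CPM, and in B16F10 13.5 and 14.1 CPM against 89.9 and 98.5 CPM. Thus the treated libraries lay far above the untreated in every line, and the untreated values of all 3 lines lay within a narrow band. The fold change in log2 units for Melan-A was 1.98 ± 0.0494, against 2.78 ± 0.0525 for B16F0 and 2.77 ± 0.0529 for B16F10, which is 3.95-fold, 6.85-fold and 6.82-fold. Among 10957 genes with a mean log2 CPM of at least 1, Nr1d1 ranked 17 from the highest fold change for Melan-A, 4 for B16F0 and 21 for B16F10. Nr1d2 (ENSMUSG00000021775, chr14:18204054-18239127), which encodes the related receptor REV-ERB beta, was at 42.0 and 41.8 against 78.5 and 73.8 CPM in Melan-A, at 43.2 and 42.4 against 91.2 and 87.1 CPM in B16F0, and at 68.9 and 66.4 against 131 and 129 CPM in B16F10. Its log2 fold changes of 0.86 ± 0.0377, 1.06 ± 0.0387 and 0.94 ± 0.0367 lay closer together over the lines than those of any other clock gene, within 0.20 of each other.

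**Figure D3:**
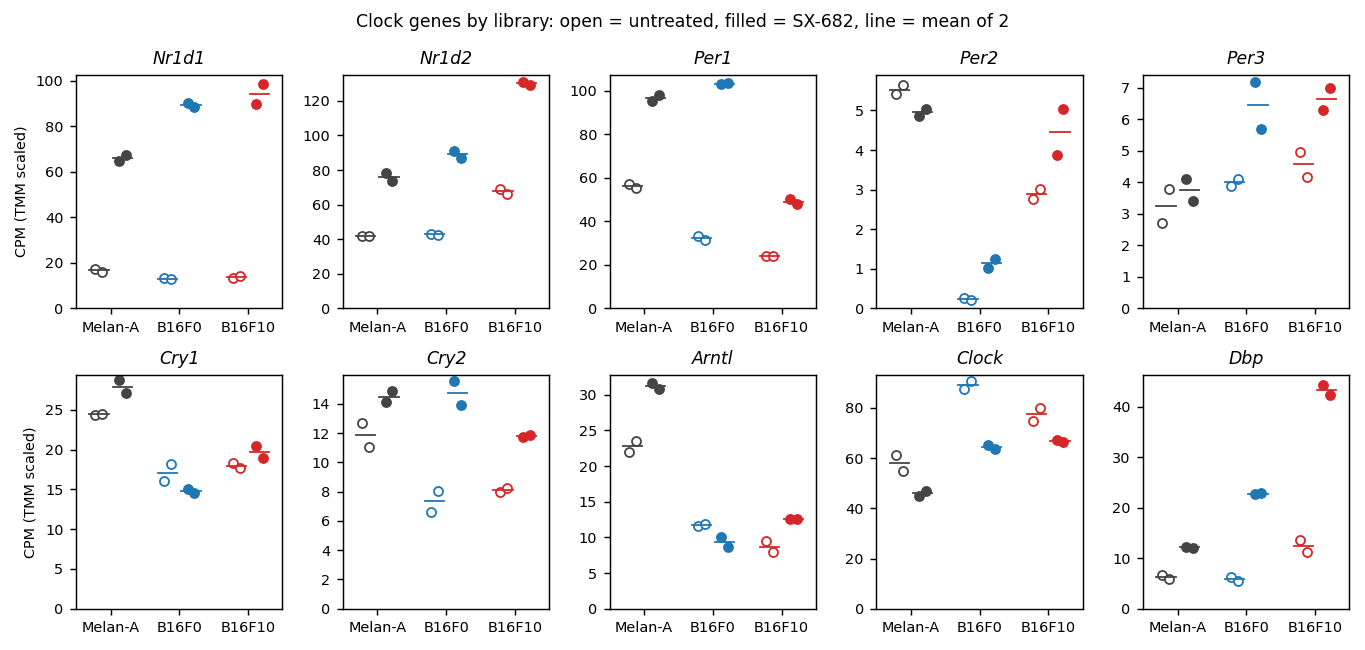
CPM of the 10 clock genes in each of the 12 libraries, untreated (open) and SX-682 (filled), with a line at the mean of the 2 libraries. Each panel has its own axis from 0. Nr1d1 was at 12.8 to 17.3 CPM in the untreated and at 64.8 to 98.5 CPM in the treated libraries of all 3 lines.

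The period genes, which encode the PER repressors of CLOCK and BMAL1, did not move as one. Per1 (ENSMUSG00000020893, chr11:69095217-69109960) was at 57.0 and 55.4 CPM in untreated and 95.1 and 97.96 CPM in treated Melan-A libraries, at 33.3 and 31.6 against 103 and 104 CPM in B16F0, and at 24.2 and 24.1 against 50.1 and 48.0 CPM in B16F10. It was higher with SX-682 in all 3 lines without overlap, with log2 fold changes of 0.78 ± 0.0368, 1.67 ± 0.0398 and 1.02 ± 0.0440, so the treated B16F0 cells reached the level of treated Melan-A cells from a lower start. Per2 (ENSMUSG00000055866, chr1:91415982-91459324) was at 5.41 and 5.64 CPM in untreated Melan-A libraries and at 4.85 and 5.05 CPM with SX-682, a log2 fold change of -0.16 ± 0.144. In B16F0, where Per2 was scarce, the level was 0.254 and 0.208 CPM against 1.03 and 1.25 CPM, from 19 and 14 against 68 and 60 counts, a log2 fold change of 2.27 ± 0.280. The treated B16F0 libraries were above the untreated but stayed under every Melan-A and B16F10 library. In B16F10 the level was 2.76 and 3.02 CPM against 3.88 and 5.03 CPM, a log2 fold change of 0.62 ± 0.159 that was 0.42 without the second treated library. Per3 (ENSMUSG00000028957, chr4:151003652-151044665) was low in every line, at 2.70 and 3.79 against 4.10 and 3.397 CPM in Melan-A, 3.90 and 4.10 against 7.19 and 5.69 CPM in B16F0, and 4.96 and 4.18 against 6.30 and 6.99 CPM in B16F10. Its libraries overlapped in Melan-A, where the log2 fold change was 0.20 ± 0.158, and lay apart in the B16 lines, at 0.70 ± 0.154 and 0.54 ± 0.153.

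The cryptochromes, the partners of the PER proteins in repression, differed from each other. Cry1 (ENSMUSG00000020038, chr10:85131700-85185064) was at 24.4 and 24.5 CPM in untreated and 28.7 and 27.1 CPM in treated Melan-A libraries, at 16.03 and 18.2 against 15.01 and 14.6 CPM in B16F0, and at 18.3 and 17.7 against 20.5 and 18.9 CPM in B16F10. The differences were small and of unlike sign, with log2 fold changes of 0.19 ± 0.0615, -0.21 ± 0.0704 and 0.13 ± 0.0682. Cry2 (ENSMUSG00000068742, chr2:92403646-92434043) was higher with SX-682 in all 3 lines, at 12.7 and 11.1 against 14.2 and 14.9 CPM in Melan-A, 6.63 and 8.03 against 15.5 and 14.0 CPM in B16F0, and 8.004 and 8.26 against 11.7 and 11.9 CPM in B16F10. Its log2 fold changes were 0.29 ± 0.0865, 1.02 ± 0.0946 and 0.54 ± 0.0965, and the treated B16F0 libraries came to the level of treated Melan-A.

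The activators Arntl and Clock gave unlike patterns. Arntl (ENSMUSG00000055116, chr7:113207465-113314126), a classic target of REV-ERB repression through ROREs, was higher with SX-682 in Melan-A, at 22.03 and 23.6 against 31.6 and 30.8 CPM, and in B16F10, at 9.51 and 7.90 against 12.5 and 12.5 CPM. It was lower in B16F0, at 11.6 and 11.8 against 10.02 and 8.64 CPM. No groups overlapped, and the log2 fold change was 0.45 ± 0.0689 for Melan-A, 0.53 ± 0.0864 for B16F10 and -0.32 ± 0.0856 for B16F0, the last of which was -0.23 without the second treated library. Clock (ENSMUSG00000029238, chr5:76209868-76304792), which encodes the partner of BMAL1, was the 1 clock gene that lay lower with SX-682 in all 3 lines. Its level was 61.3 and 54.8 against 45.0 and 47.0 CPM in Melan-A, 87.7 and 90.9 against 65.3 and 63.5 CPM in B16F0, and 74.9 and 80.0 against 67.1 and 66.5 CPM in B16F10, with log2 fold changes of -0.34 ± 0.0451, -0.47 ± 0.0443 and -0.21 ± 0.0446.

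Dbp (ENSMUSG00000059824, chr7:45705088-45710203), a D-box activator and a strongly rhythmic direct target of CLOCK and BMAL1, was higher with SX-682 in all 3 lines. Its level was 6.62 and 5.98 against 12.3 and 11.96 CPM in Melan-A, 6.19 and 5.50 against 22.7 and 22.9 CPM in B16F0, and 13.6 and 11.3 against 44.4 and 42.4 CPM in B16F10. The log2 fold changes were 0.95 ± 0.0853, 1.96 ± 0.0858 and 1.81 ± 0.0759, so that in both B16 lines Dbp was among the clock genes with the largest differences. In B16F0 only Nr1d1 and Per2 had a larger fold change among the clock genes, and in B16F10 only Nr1d1.

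**Figure D4:**
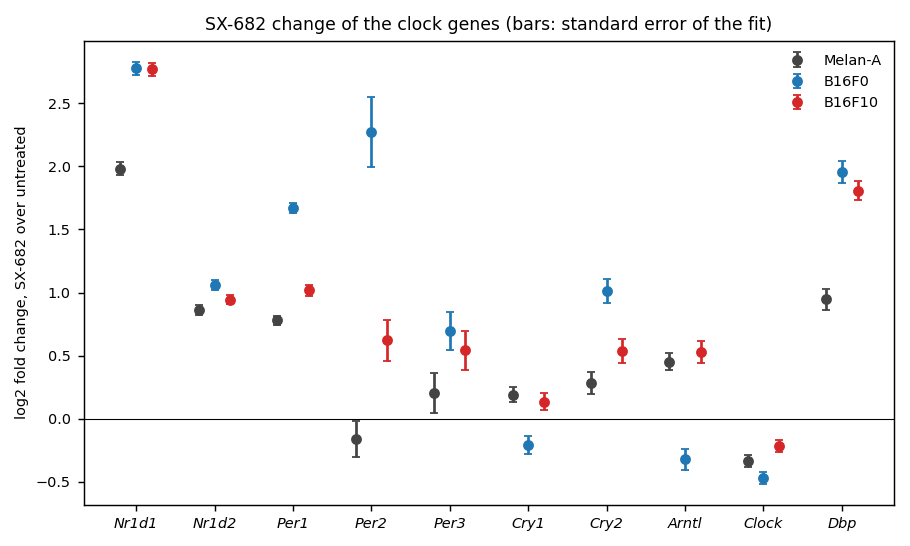
Log2 fold change of SX-682 against untreated for the 10 clock genes in each line, with the standard error of the fit as bars. Nr1d1 was highest in each line at 1.98, 2.78 and 2.77, Clock was below 0 in all 3, and Per2, Cry1 and Arntl had values on both sides of 0.

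Counted over the list, 5 clock genes (Nr1d1, Nr1d2, Per1, Cry2 and Dbp) were called higher and 1 (Clock) lower with SX-682 in all 3 lines, while 11.3% and 11.7% of all tested genes were. Within a line, 8 of the 10 were called in Melan-A (7 higher and 1 lower), 10 in B16F0 (7 and 3) and 9 in B16F10 (8 and 1), where 48.2%, 50.1% and 50.8% of all genes tested were called in either direction. Higher calls made up 23.4%, 25.1% and 25.5% of all genes tested in these lines, and lower calls 24.7%, 25.0% and 25.3%. The libraries of the groups did not overlap for 9, 10 and 10 of the clock genes, against 72.7%, 70.4% and 69.4% of all genes. Their median log2 fold change was 0.37 for Melan-A, 1.04 for B16F0 and 0.58 for B16F10, where the median over all genes was 0. The test of a difference among lines called 9 of the 10, with Per3 not called, and 47.4% of all genes. These counts describe the list and nothing is read from them, since the same values chose the genes. With SX-682 Nr1d1 became the most abundant of the 10 per length in every line, at 21.5 ± 0.615, 29.1 ± 0.391 and 30.6 ± 1.97 RPKM (SD, n = 2), followed by Per1 at 17.1 and 18.4 RPKM in Melan-A and B16F0 and by Nr1d2 at 24.0 RPKM in B16F10.

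To see how the rest of the pathway behaved, 29 other clock genes were grouped by role, of which 28 could be tested (Npas2 had too few counts). By the edgeR quasi-likelihood test adjusted over all 18338 genes, SX-682 raised 12 and lowered 7 of the 28 in Melan-A, raised 15 and lowered 5 in B16F0, and raised 10 and lowered 5 in B16F10. The calls were thus 19, 20 and 15 of 28, where 48.2%, 50.1% and 50.8% of all tested genes were called. Calls were more common among better expressed genes, with 8152, 8410 and 8738 of the 12326 genes that had at least 10 counts in every library, and the list was not compared with these by a test. The median log2 fold change of the list was 0.00 for Melan-A, 0.17 for B16F0 and 0.01 for B16F10, and that of all genes was 0. Of these genes, 6 rose in all 3 lines (Bhlhe41, Nfil3, Btrc, Nampt, Rora and Tef), 0 fell in all 3, and Gsk3b was called in all 3 with mixed signs.

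Of the 3 E-box repressors, Bhlhe41, which encodes DEC2, was raised in every line. It was at 3.57 and 3.401 against 11.8 and 11.5 CPM in Melan-A (log2 fold change 1.74 ± 0.0592, adjusted p = 2.9e-20), at 112 and 111 against 245 and 244 CPM in B16F0 (1.13 ± 0.0282, 1.07e-23) and at 128 and 126 against 287 and 292 CPM in B16F10 (1.19 ± 0.0280, 1.75e-24). Its untreated level was therefore far higher in the tumor lines, by a log2 difference of 5.002 in B16F0 (adjusted p = 2.9e-36) and 5.18 in B16F10 (1.13e-36). Bhlhe40, which encodes the related DEC1, split the lines, at 254 and 258 against 610 and 604 CPM in Melan-A, 90.0 and 89.0 against 55.0 and 55.6 CPM in B16F0 and 125 and 120 against 121 and 118 CPM in B16F10. It rose in Melan-A by 1.24 ± 0.0257 on the log2 scale (adjusted p = 2.95e-25) and fell by 0.70 in B16F0 (SE 0.0308, 1.02e-17), while the value of -0.03 ± 0.0283 in B16F10 did not pass (0.365). The difference among lines passed the interaction test in edgeR (adjusted p = 8.95e-25). The last of them, Ciart, rose in Melan-A (0.65 ± 0.142, adjusted p = 0.000297) and B16F0 (0.74 ± 0.246, 0.0124). In B16F0 it was at 0.521 and 0.595 against 1.06 and 0.769 CPM, on 37 to 70 counts in a library. Its B16F10 value of -0.04 rests on 18 to 23 counts in a library and was not called. A difference of Ciart among lines did not pass the interaction test in edgeR (adjusted p = 0.242). The untreated level of Ciart was lower in the tumor lines, with log2 differences of -3.39 and -4.10 from Melan-A (adjusted p = 6.48e-16 and 9.77e-17).

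Of the PAR-bZIP factors and their opponent, Nfil3, the D-box repressor, rose from 41.3 and 40.5 to 82.6 and 87.8 CPM in Melan-A, from 29.3 and 28.5 to 86.0 and 87.7 CPM in B16F0 and from 23.9 and 22.5 to 81.2 and 83.5 CPM in B16F10. Its log2 fold changes of 1.06 ± 0.0397, 1.59 ± 0.0426 and 1.83 ± 0.0444 (adjusted p = 2.83e-19, 6.13e-23 and 4.18e-24) differed among lines (1.94e-11). Nfil3 and Dbp, which act in opposite ways at D-boxes, were thus both higher in every treated group. Tef, an activator related to Dbp, rose in Melan-A by 0.16 ± 0.0299 (adjusted p = 3.15e-05), 0.81 ± 0.0302 in B16F0 (1.99e-19) and 0.38 ± 0.0296 in B16F10 (3.67e-12) in log2 units. Hlf, the other related activator, was called in none of the lines.

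Among the ROR receptors, which activate through the element that the REV-ERBs repress, Rora rose in all 3 lines. It went from 21.7 and 20.2 to 43.2 and 42.6 CPM in Melan-A (log2 fold change 1.03 ± 0.0560, adjusted p = 1.42e-15) and from 17.5 and 17.5 to 37.9 and 38.1 CPM in B16F10 (1.11 ± 0.0605, 9.21e-16). The B16F0 difference was small, from 21.2 and 20.1 to 24.8 and 21.9 CPM (0.19 ± 0.0614, 0.0124), and it did not pass without the first treated library (0.09, adjusted p = 0.397) or the second untreated one (0.15, 0.128). Rorb had 0 and 0 counts in untreated and 2 and 6 in treated Melan-A libraries, so its call there (adjusted p = 0.0164) rests on very few reads and was lost without either untreated library (0.0664 and 0.0706) or the second treated one (0.14). It had 31 to 56 counts in each B16F0 library.

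The next groups hold kinases, ubiquitin ligases and a deubiquitinase that set the life of the PER and CRY proteins. Of the 3 kinase genes, 0 rose and 2 fell in Melan-A, 2 rose and 0 fell in B16F0, and 1 rose and 1 fell in B16F10, and of the 5 ligase and deubiquitinase genes 2 rose and 0 fell, 2 rose and 2 fell, and 2 rose and 1 fell. Btrc, which encodes a ligase subunit for PER, rose in all 3 lines, in Melan-A by 0.29 ± 0.0386 (adjusted p = 2.41e-07), 0.38 ± 0.0405 in B16F0 (3.86e-09) and 0.68 ± 0.0397 in B16F10 (5.41e-15) as log2 fold changes. Gsk3b, a kinase gene, fell by 0.21 in Melan-A (SE 0.0290, adjusted p = 4.15e-07) and rose by 0.52 ± 0.0283 in B16F0 (1.64e-15) and 0.30 ± 0.0287 in B16F10 (3.2e-10). The changes of Csnk1d and Csnk1e, the casein kinases that phosphorylate PER, lay between -0.12 and 0.09 in all lines. Of the 5 corepressors and coactivators, 0 rose and 2 fell in Melan-A, 4 rose and 1 fell in B16F0, and 2 rose and 1 fell in B16F10, none by more than 0.36 on the log2 scale. Of the partners of the PER and CRY complex, Timeless fell by 0.41 in Melan-A (SE 0.0344, adjusted p = 2.02e-11) and by 0.20 in B16F10 (SE 0.0382, 4e-05), while its value of 0.06 ± 0.0369 in B16F0 did not pass (0.201). Nono fell by 0.22 in Melan-A (SE 0.0226, adjusted p = 1.25e-09) and by 0.09 in B16F0 (SE 0.0226, 0.000949), and its value of 0.02 ± 0.0227 in B16F10 did not pass (0.467).

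Of the 3 output genes, 2 rose and 1 fell in Melan-A, 1 rose and 0 fell in B16F0, and 1 rose and 1 fell in B16F10. The log2 fold change of Wee1 was -0.51 in Melan-A, where it was called, and -0.01 in B16F0 and 0.08 in B16F10, where it was not. Nampt, the rate-limiting enzyme of NAD salvage, rose from 68.1 and 71.4 to 120 and 115 CPM in Melan-A (log2 fold change 0.75 ± 0.0314, adjusted p = 3.51e-18). Its rises in B16F0 (0.20 ± 0.0298, 1.49e-06) and B16F10 (0.25 ± 0.0326, 9.26e-08) were smaller, and the difference among lines passed the test (8.62e-12). Noct, a rhythmic phosphatase gene, was at 39.8 and 41.5 against 46.2 and 47.7 CPM in Melan-A (0.21 ± 0.0411, adjusted p = 8.3e-05), at 41.2 and 39.5 against 37.0 and 38.9 CPM in B16F0 (-0.09 ± 0.0439, 0.0924) and at 104 and 101 against 57.5 and 58.1 CPM in B16F10 (-0.83 ± 0.0397, 4.68e-17). It therefore fell in B16F10, the line in which its untreated level was highest, and the lines differed (interaction adjusted p = 1.09e-14).

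**Figure D5:**
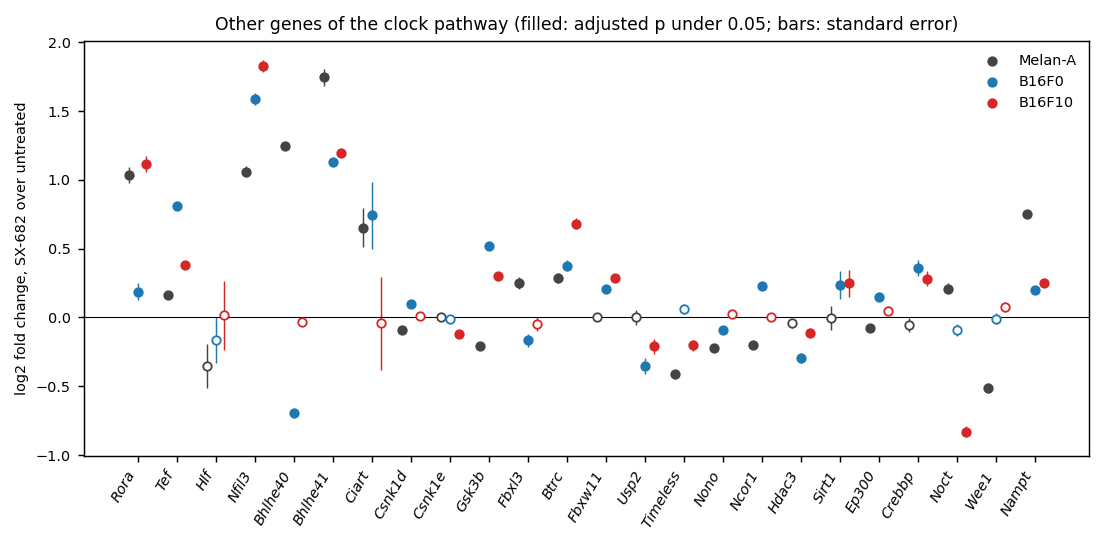
Log2 fold change of SX-682 against untreated for 24 of the 29 other genes of the clock pathway in each line, with standard errors as bars and filled points at an adjusted p under 0.05. Genes with few or no counts (Npas2, Arntl2, Rorb and Fbxl21) are among those not drawn. Nfil3 and Bhlhe41 were above 1 in all 3 lines, and Bhlhe40 was at 1.24, -0.70 and -0.03.

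Some exons of the clock genes overlap exons of other genes, and the strand setting of the read counting was not given in the sources used here. The Nr1d1 exons share 263 bases (8.55% of their length) with Thra, a thyroid hormone receptor gene on the opposite strand. Thra was at 109 and 109 against 101 and 101 CPM in Melan-A, 54.4 and 51.6 against 68.1 and 70.0 CPM in B16F0 and 44.7 and 47.2 against 72.1 and 74.1 CPM in B16F10, with log2 fold changes of -0.11, 0.38 and 0.67 (adjusted p = 0.00779, 8.17e-10 and 3.67e-15 in edgeR). The signs of Nr1d1 and Thra differed in Melan-A and were the same in B16F0 and B16F10. Dbp shares 539 bases (18.0%) with Sphk2, whose log2 fold changes were 0.45, 0.05 and 0.45 (adjusted p = 9.8e-08, 0.597 and 2.4e-07) at 19.2 to 36.4 CPM. The overlaps of Cry2 with D930015M05Rik (295 bases) and of Arntl with Gm45355 (33 bases) involve genes at under 1 CPM in every library. The part of shared reads in these values was not tested.

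The genes whose log2 CPM most resembled that of Nr1d1 over the 12 libraries were sought among 10956 genes, as a description. They were 1810026B05Rik (Pearson r = 0.990), Samd8 (0.988), Fars2 (0.981), Washc2 (0.981) and Prpf40b (0.980), none of which is on the clock lists. Their SX-682 differences were smaller than that of Nr1d1 in every line, for instance 1.21, 1.99 and 1.81 on the log2 scale for 1810026B05Rik and 0.34, 0.37 and 0.36 for Washc2. The 12 points share 6 treated libraries.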

How the data were processed

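RNA from untreated and SX-682-treated cultures of 3 lines was sequenced in 12 libraries. Raw read counts per gene were deposited by the authors without normalization, with gene lengths and GRCm38 (mm10) coordinates. The submitters' processing notes name cutadapt, STAR and DESeq2, and the counting program, its strand setting and versions were not given in the sources used here. Of the 34513 gene identifiers, 33821 were found with their version in GENCODE M21, all with the same coordinates. The name of each of the 12 count columns gave its library.

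The main test was the quasi-likelihood F-test of edgeR 4.0.16 (R 4.3.3) on all 12 libraries in 1 fit of 6 groups, scaled by TMM and limited to the 18338 genes that filterByExpr retained, with prior count 0.125 and Benjamini-Hochberg adjusted values called under 0.05. Adjusted p-values in the text come from this test. Each standard error is the log2 fold change over the root of its F value. The residual degrees of freedom were 6, to which the fit added 21.9 prior degrees of freedom shared over genes. The p-values thus do not rest on the replicates of each gene alone. An F-test over both line differences asked whether a change differed among the 3 lines. CPM used TMM-scaled totals, and RPKM also the deposited lengths. A floor of 3 counts equals 0.033 to 0.0623 CPM and covers counting error only. The labels do not say that replicates were separate cultures, so p-values measure only the spread between libraries, which may be technical; replicates differed by a chi-square per gene of 2.87 to 5.25, more than sampling noise. An exact permutation of 2 against 2 libraries cannot give a p under 0.333.

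The members and lists were chosen with earlier results of these data known. Genes named are the members, pathway genes called in all 3 lines in 1 direction, the 4 with the largest range over lines past the interaction test, genes with overlapping exons and the 5 most like Nr1d1 (mean log2 CPM of at least 1). Gsk3b, Ciart, Hlf, Csnk1d, Csnk1e, Timeless, Nono and Wee1 were added after their values were seen. The values of 1 pathway gene are not reported here. Alternatives were DESeq2 1.42.0, RLE scaling, other filters, separate fits, a replicate block, a threshold of 0.01, a prior count of 2 and each library left out. The code of the fit was run on simulated counts without differences between lines and with far fewer changed genes than here. That run is therefore no check of the calls reported. The mouse tumors and protein assays were not analysed here.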

Additional observations from a re-analysis of the deposited data

Results flagged for a closer look

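The SX-682 change of 3 clock genes had opposite signs between lines, with libraries of the lines moving in opposite directions, and this is given as a description, since the same values chose these genes. The interaction test over all genes included them, and it is used for them only in the count of 9 of 10 clock genes called, where 47.4% of all genes were. The range of the log2 fold change over lines was 2.43 for Per2, from -0.16 in Melan-A to 2.27 in B16F0. The Melan-A value of Per2 was small and was not called, and the B16F0 value rests on 14 to 68 counts in a library. For Arntl the range was 0.85, from -0.32 in B16F0 to 0.53 in B16F10. For Cry1 it was 0.40, from -0.21 in B16F0 to 0.19 in Melan-A.

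The change differed among lines for 22 of the 28 other pathway genes in edgeR's interaction test, where 47.4% of all genes tested did. Among genes with at least 10 counts in every library, 8285 of 12326 did, and the list was not compared with these by a test. Those named by the rule of largest range or of calls in all 3 lines are given here. The range of the log2 fold change over lines was 1.94 for Bhlhe40 (adjusted p = 8.95e-25), 1.04 for Noct (1.09e-14), 0.93 for Rora (1.78e-10), 0.77 for Nfil3 (1.94e-11), 0.64 for Tef (7.93e-13), 0.61 for Bhlhe41 (3.74e-08), 0.55 for Nampt (8.62e-12) and 0.39 for Btrc (1.93e-06). Rorb was also past this test (0.03), but its libraries held 0 to 6 counts in Melan-A and 0 to 3 in B16F10. The range of its fitted values, 8.78, therefore depends on the prior count and does not measure the size of a difference.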

How the results depend on the processing

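The 14 counts of clock and pathway genes called gave 264 values under the alternatives, all within 1.5 times the count as reported. Of the 30 SX-682 differences of the clock genes, 29 kept their sign in all 19 alternatives, and Per3 in Melan-A was -0.01 without the first untreated library. Some small differences moved when 1 library was left out, in log2 units and as a description. Without the second untreated library, Cry1 in B16F0 was -0.12 in place of -0.21, Cry2 in Melan-A 0.19 in place of 0.29, Per3 in Melan-A 0.48 in place of 0.20, and Per3 in B16F10 0.41 in place of 0.54. Without the second treated library, Arntl in B16F0 was -0.23 in place of -0.32 and Per2 in B16F10 0.42 in place of 0.62. Leaving out each library gave 7 to 8 clock genes called with SX-682 in Melan-A, 8 to 10 in B16F0 and 8 to 9 in B16F10, and 16 to 19, 17 to 20 and 14 to 15 pathway genes. Between untreated lines these counts were 7 to 8, 9 to 10 and 6 to 7 clock genes and 21 to 23, 21 to 24 and 20 to 23 pathway genes, and for the difference among lines 8 to 10 and 20 to 22. Under the other alternatives, which include a threshold of 0.01, 7 to 8, 9 to 10 and 9 clock genes were called with SX-682 in Melan-A, B16F0 and B16F10.

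The control and treated libraries of a line share replicate numbers, and their deviations correlated at -0.0276 (Melan-A), -0.0112 (B16F0) and -0.00892 (B16F10). Such weak correlations cannot tell whether libraries with the same number were prepared together, since the spread between replicates may be technical. With a replicate block in the fit, 8, 10 and 9 clock genes and 19, 19 and 15 pathway genes were called with SX-682 in the 3 lines, in the same order. RLE scaling moved the median of all genes by less than 0.1 on the log2 scale. Genes with few counts, such as Per2 in B16F0, carry the widest errors.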
